A study of Macaca mulatta with 64 samples.

Results

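Start positions near the annotated gene end are the CAGE-seq positions that lie more than 500 nt inside a gene and at 0.8 or more of its annotated length, counted from the annotated start on the gene's own strand. Mitochondrial genes were left out. This rule uses only the place of a position and not its level, and it took 43570 of the 160389 positions of the series, 27.4% of the nuclear positions, in 7784 genes, 6442 of them with a symbol. CAGE-seq counts the 5′ ends of capped RNA. Here 64 libraries of rhesus macaque brain were compared, from PFC, PCC, temporal cortex (TC), PC and occipital cortex (OC) of the neocortex, CA1 and dentate gyrus (DG) of the hippocampus, and cerebellar cortex (CB). Females and males of 1, 4, 10 and 20 yr gave 1 library for each region, age and sex, and each combination of age and sex is called an animal group. The animals are not given any treatment or allele in the labels. The methods describe each RNA-seq library as made from a pair of animals matched in age and sex, and CAGE-seq as run on the same 64 samples, so a library pools animals. The spread reported is that between the 8 animal groups.

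In most CAGE-seq experiments the tags gather at promoters, where transcription of the gene starts. A smaller part falls inside exons and in the 3′ UTR, the stretch of an mRNA after its stop codon that carries signals for its stability, its translation and, in neurons, its transport into axons and dendrites. Tags there have been described as starts of separate short RNAs and as cut pieces of longer mRNAs that received a new cap. Neither the cap of the tagged RNA nor its length was measured here. The exon and UTR borders of the genes were not used, so the text says how far a position lay from the annotated gene end and not in which part of the mRNA it lay.

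Gene-end positions held 25.1% of all listed nuclear TPM, against 21.0% for interior positions (over 500 nt inside and below 0.8 of the length, 58943 positions) and 53.9% for start positions (up to 500 nt inside the start or upstream of it, 56655 positions). TPM, as the study uses the term, scales tags to a fixed library total and takes no account of transcript length. Low levels are cut by a listing limit, since the smallest listed value of a library stood for 2 to 7 tags, and a gene at 0 is a gene with no listed position. The number of nuclear positions listed per library ranged from 637 to 23612 and was highest in CA1, with 11967 ± 5293 (SD, n = 8 libraries), and lowest in PCC, with 1752 ± 862 (n = 8). This difference moves with every comparison that has CA1 on 1 side, and it is given beside those results.

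The positions gathered in the last stretch before the annotated end. The median distance to that end was 1136 nt, with quartiles of 511 and 3706 nt, and 6 positions lay past the end. The number of positions per 100 nt rose to 2634 between 400 and 500 nt before the end and fell to 1257 between 1000 and 1100 nt. The last 100 nt before the end held 1228 positions. Summed TPM was highest in bins set by single genes, with 32283 TPM between 1500 and 1600 nt. The count of positions was flat below the limit of the rule and rose from there on. The stretch from 0.7 to 0.75 of the gene length held 5216 positions, and that from 0.75 to 0.8 held 5169 positions and 2.30% of nuclear TPM. The stretch from 0.8 to 0.85 held 6360 positions and 9.47%, and that from 0.85 to 0.9 held 7627 positions and 3.28%. The main positions of HYPK (8231 nt inside 9804 nt) and NEURL4 (14038 nt inside 16640 nt) lie between 0.8 and 0.85. A limit at 0.9 leaves them out. Overlap with other genes in the table was rare. Within 500 nt of the annotated start of another gene on the same strand lay 0.326% of the positions, and 2.64% lay inside another gene on the same strand.

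**Figure D1:**
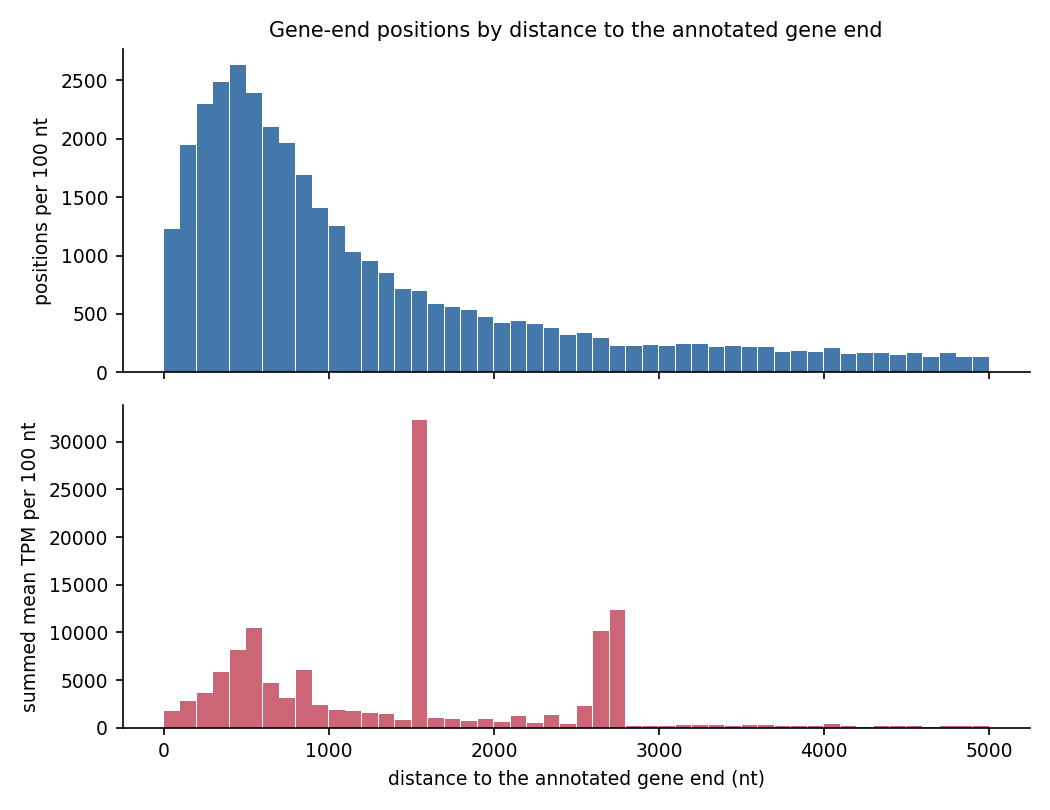
Gene-end positions (top, number per 100 nt) and their summed mean TPM over the 64 libraries (bottom, per 100 nt) by distance to the annotated gene end in nt, for the last 5000 nt. The number of positions peaks at 2634 between 400 and 500 nt before the end, while the TPM has its highest bar, 32283 TPM, between 1500 and 1600 nt.

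Most gene-end positions were seen once. Of all gene-end positions 20.6% were listed in more than 1 library, against 19.5% of interior and 35.7% of start positions, and 1108 were listed in at least 8 libraries. After joining positions of a gene less than 20 nt apart these shares were 30.6%, 26.9% and 50.1%. Within a library, 58.9% ± 8.46 (SD, n = 64) of the listed gene-end positions were also listed in a library of another animal group, and 58.7% ± 9.21 of the interior ones. The difference of 0.213 percentage points was not significant (p = 0.555 from exact sign flips of the 8 animal groups, two-sided, and 0.555 after adjustment over 8 tests of shares), with the gene end higher in 4 of them. In CA1, the region with the most listed positions, 41.0% ± 5.48 (n = 8) of the gene-end positions recurred, the lowest of the regions.

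The TPM at gene ends was held by few genes. HYPK alone held 23.0% of it, the first 3 genes 41.2%, the first 10 genes 52.7% and the first 100 genes 68.7%. The median gene had a mean of 1.23 TPM at its end, and 2387 genes were listed there in a single library. At least 90% of the TPM of a gene lay at its end in 1846 genes, and 3160 of the 7784 genes had no start position at all. The share of genes with a gene-end position was 36.1% among 2440 nuclear genes with spans of up to 5000 nt and 70.1% among 2239 genes with spans over 100000 nt. Gene-end and start levels of a gene were nearly unrelated across genes. In 714 genes with both features above the filter described below, Spearman's rho of the mean levels was 0.03, and these genes share all libraries. The median over these genes of Pearson's r across the 64 libraries was 0.08. These correlations are descriptions and genes are not independent replicates.

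HYPK, which encodes a small chaperone that works with the ribosome-bound acetyltransferase NatA, had 31538 ± 7993 TPM (SD, n = 64) at its end and 99.2% of its TPM there. Its annotated span is chr7:22185163-22194966 on the plus strand of the MMUL 1.0 build, and its main position lay 8231 nt inside a span of 9804 nt and 1572 nt before the end. The highest position of a library fell on 3 positions within 19 nt, the same one in 47 libraries. GPX4, which encodes the glutathione peroxidase that reduces lipid peroxides in membranes, had 12764 ± 7261 TPM, with the main position 36679 nt inside its span (chr19:818096-857522, plus strand) and 2747 nt before the end. NEURL4, a gene of the Neuralized family of ubiquitin ligase components, had 12091 ± 5997 TPM, with the main position 14038 nt inside its span (chr16:7048567-7065206, minus strand) and 2601 nt before the end. All 3 genes were listed at the end in every library. Their spans are those given with the values, and they are not free of other genes. The span of GPX4, 39427 nt long, holds POLR2E, on the other strand. Its annotated start lies inside ARHGAP45, on the same strand. The span of HYPK holds SERF2, on the other strand. In the order of genes in RefSeq (T2T-MMU8v2.0), GPS2 lies next to NEURL4 and SERINC4 next to HYPK, and neither has a position in the table. The part of these spans in the levels was not tested. Nor was it tested whether a main position is an ordinary start of a gene shorter than its span.

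RBM42, an RNA-binding protein gene, was the sharpest of the abundant genes. A single position 503 nt before the end of its span (chr19:42116121-42125169, plus strand) was listed in all 64 libraries and held 99.99% of its gene-end TPM. It had 3971 ± 2685 TPM (n = 64). The same form was seen in ENSMMUG00000000612, a gene with no symbol in the table used (chr20:380792-384467, plus strand), with 1 position 498 nt before the end in all 64 libraries and 1856 ± 1448 TPM. These were the only gene-end positions listed in every library. The next were those of AP2A2, an adaptor subunit of clathrin coats, in 63 libraries, 2572 nt before the end, and of SYP, in 62 libraries, 837 nt before the end. ENSMMUG00000006231 and ENSMMUG00000006899 had a position in 61 libraries each, 365 and 163 nt before the end.

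Other abundant genes were spread over many positions. SYP, the synaptophysin of synaptic vesicle membranes, had 3112 ± 2506 TPM over 92 positions. MBP, the myelin basic protein, had 2578 ± 1973 TPM over 193 positions, with 59.0% in its largest cluster of joined positions. SLC39A4, a zinc transporter, had 2491 ± 1323 TPM, CPE, which trims neuropeptide precursors, 889 TPM, and HPCA, the neuronal calcium sensor hippocalcin, 843 TPM. NDRG2, a gene strongly expressed in astrocytes, had 792 TPM, MAP7D1, a microtubule-binding protein, 649 TPM, and RBPMS, an RNA-binding protein, 631 TPM. MAP1B, a microtubule protein of growing axons, had 224 gene-end positions, the most of any gene, and 626 TPM. The 1200 genes with at least 10 TPM at the end on average had a median of 60.4% of that TPM in 1 cluster, 351 of them over 80% and 13 under 20%.

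The share of a library's nuclear TPM at gene ends differed between regions. It was highest in DG, 27.2% ± 1.39 (SD, n = 8 libraries), CA1, 26.5% ± 1.73, and CB, 26.3% ± 1.93, and lowest in PFC, 23.4% ± 2.48, and TC, 23.5% ± 1.82. PCC, PC and OC had 24.6% ± 2.41, 24.6% ± 1.06 and 25.4% ± 1.84. The ranges of all regions overlapped, from 20.0% in a TC library to 30.3% in a DG library. The region means had a range of 3.73 percentage points. Shuffling the region labels within animal groups seldom set the means as far apart (permutation test of the region F statistic, 100000 resamples, p = 0.00086, adjusted p = 0.00536). Without the 20-yr-old females the range was 3.10 points, with an adjusted p of 0.0833 in the same permutation test. The share of listed positions differed as well, with 26.9% ± 1.75 in OC, 25.2% ± 3.42 in PC and 22.0% ± 1.44 in PCC (same permutation test, p = 0.00134, adjusted p = 0.00536). Within regions and animal groups, the share of TPM was 0.988 percentage points higher and the share of positions 2.05 points higher for each doubling of the listed positions.

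The hippocampus exceeded the neocortex by 2.52 percentage points of TPM, 26.8% against 24.3%, and was higher in 7 of the 8 (p = 0.0156 from exact sign flips, adjusted p = 0.0417). The call was lost without any animal group other than the 1-yr-old males, with differences from 2.09 to 2.82 points, in a design of 7 groups. CB exceeded the other regions by 1.32 points (SD of the difference 2.19, higher in 6 of 8, p = 0.125 from exact sign flips, adjusted p = 0.2). CA1 and DG differed by -0.69 points (SD 1.96, p = 0.352 from exact sign flips, adjusted p = 0.469). The 3 most abundant genes differed between CA1 and DG as well. HYPK, GPX4 and NEURL4 together held 14.9% ± 1.46 of the nuclear TPM in CA1 and 10.0% ± 0.84 in DG (n = 8 each), and the lowest CA1 library, 13.9%, was above the highest DG library, 11.04%. Without these 3 genes, a choice made after the data were seen, the hippocampus and the neocortex differed by 0.0954 points (exact sign flips, adjusted p = 0.906). CA1 then had the lowest share of the regions, 13.6% ± 1.58, and DG the highest, 19.1% ± 1.45, with a difference of -5.45 points in all 8 animal groups (exact sign flips, adjusted p = 0.0208; 0.00781 is the smallest p that 8 groups can give before adjustment).

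**Figure D2:**
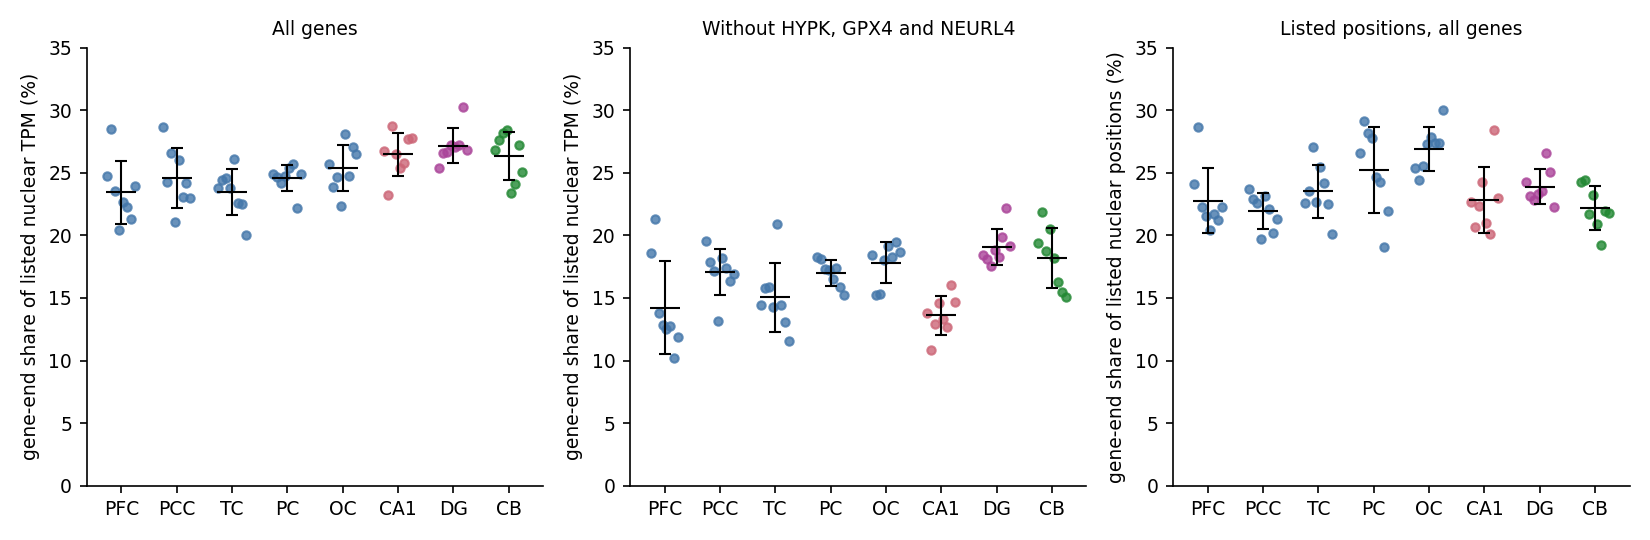
Gene-end share of listed nuclear TPM in percent with all genes (left) and without HYPK, GPX4 and NEURL4 (middle), and gene-end share of listed nuclear positions in percent (right), for 8 regions. Points are libraries, ordered within a region by age and sex, and bars are the mean ± SD of 8 libraries. CA1 has 26.5% on the left and the lowest mean, 13.6%, in the middle.

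The gene-end share of TPM was not called by age or sex. Means over regions were 25.01% in animal groups of 10 and 20 yr and 25.4% in those of 1 and 4 yr, a difference of -0.36 points (exact permutation test of 8 animal-group means, two-sided, p = 0.457, adjusted p = 0.522). Females had 25.7% and males 24.7%, a difference of 0.925 points (same exact test, p = 0.0571, adjusted p = 0.114, smallest possible p 0.0286). This test did not pair the sexes by age. Females had 25.9% against 25.4% in males at 1 yr and 25.9% against 24.3% at 4 yr. At 10 yr these were 25.5% against 24.4%, and at 20 yr 25.3% against 24.8%. Without HYPK, GPX4 and NEURL4 the sexes differed by 0.454 points. The gene-end share of positions, not among the tests and described after its values were seen, had means over regions of 23.7% to 24.6% in the 4 animal groups of 1 and 4 yr and of 22.8% to 23.4% in the 4 of 10 and 20 yr, with no overlap. The younger groups listed 5342 ± 541 nuclear positions per library (SD, n = 4 groups) and the older ones 4406 ± 1091, and the part of this in the share was not tested.

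Single genes were then compared on features, the summed TPM of a gene at its end, in its interior or at its start. Features reaching 1 TPM in 8 or more libraries were kept. This left 1826 gene-end features, 23.5% of the gene-end genes with 92.9% of their TPM, among 7358 features of all classes. A feature that passed only through the region where it is high had to differ, so the counts below are descriptions. Values were compared on log2(TPM + 1) with limma, blocked on animal group, and called at an adjusted p under 0.05 (Benjamini-Hochberg over all 7358 features). Differences are on that log2 scale, first group minus second, and understate the change of low genes.

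In CB, 26 of 1826 gene-end features differed from the mean of the other 7 regions, 1.42%, beside 1.44% of features of all classes. Of these 16 were higher and 10 lower, beside 0.734% and 0.707% of all features. Without the 4-yr-old females 15 were called and without the 1-yr-old males 17. With the log2 number of listed positions as a term 39 were called, 33 higher and 6 lower, with quantile normalization 39, 30 higher and 9 lower, and with no filter 37, 30 higher and 7 lower. The median difference was -0.41 for gene-end features and -0.40 for all features, so features were on the whole listed lower in CB. CB is the part of the brain with granule cells in very large numbers and with Purkinje cells, and it lacks the pyramidal neurons of the cortex and the hippocampus. CBLN1, the cerebellin that granule cells secrete and a marker fixed for these cells, had gene-end tags in 7 of 8 CB libraries, with a median of 226 TPM, and in none of the other 56 libraries. It did not pass the filter, so it was not tested. Of the 16 genes of the list of cerebellar granule and Purkinje cells, 6 had a gene-end position. Only 1 of them was tested, with a difference of 0.01 in CB and no call.

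HPCA fell most in CB. Its gene-end TPM in CB had a lowest value of 0, a median of 1.53 and a highest value of 38.7, with 4 of 8 libraries listed. In the other 56 libraries the lowest, median and highest values were 0, 666 and 3625 TPM, with 55 listed. Every library of PFC, TC, OC, CA1 and DG was above every CB library, and PCC and PC had libraries in the range of CB. The difference was -7.17 ± 0.75 (SE, limma, adjusted p = 2.88e-12), lower in 8 of 8 animal groups. DG had the highest values, 1970 to 3625 TPM with a median of 3058, and no library of another region except PCC reached 1970. The main HPCA position lay 443 nt before the end of the span (chr1:35674549-35682703, plus strand).

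NRGN, the postsynaptic calmodulin-binding protein neurogranin, was listed at 0 in all 8 CB libraries and in 43 of the 56 others, with a median of 82.9 TPM there (limma, adjusted p = 0.00178). SYT5, a synaptotagmin of secretory vesicles, was listed in 3 of 8 CB libraries, at up to 80.8 TPM, and in 50 of 56 others, with a median of 212 TPM. It fell by 4.98 ± 1.00 (adjusted p = 0.000707, 7 of 8 animal groups). RPS21, a protein of the small ribosomal subunit, had 1 of 8 CB libraries listed against 46 of 56 others (-4.78 ± 1.06, adjusted p = 0.00311). Its annotated span is 196267 nt long, with the main position 1233 nt before the end. CENPS, a centromere protein gene, was at 0 in all CB libraries and listed in 44 of 56 others (adjusted p = 0.00464). PNPLA7, a lysophospholipase, had 1 of 8 CB libraries listed against 34 of 56 (-4.50 ± 1.13, adjusted p = 0.0154). The call for PNPLA7 was lost with the number of listed positions as a term (adjusted p = 0.0549), the others kept it.

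Of the 16 features called higher in CB 4 were higher in at least 7 of 8 animal groups, against 9 of 10 lower features. The 4 were RBM42, CHGB, SYP and SIRT6. RBM42 had 4434, 8664 and 12608 TPM as its lowest, median and highest values in CB, and 567, 2977 and 9141 TPM in the other libraries. It was higher by 1.54 ± 0.34 (adjusted p = 0.00343) in 8 of 8 animal groups. CHGB, the granule protein chromogranin B, had 614, 1752 and 3066 TPM in CB and 0, 230 and 1584 TPM elsewhere, and rose by 3.93 ± 0.96 (adjusted p = 0.011, 8 of 8 animal groups). Its main position lay 1929 nt before the end. SYP had 1784, 5591 and 10523 TPM in CB and 224, 2461 and 12172 TPM elsewhere. Its difference was 1.32 ± 0.37 (adjusted p = 0.0399, 8 of 8 animal groups), which was not called after quantile normalization (1.00, adjusted p = 0.193). SIRT6, a nuclear deacylase of chromatin, was listed in 7 of 8 CB libraries, with a median of 322 TPM, and in 31 of 56 others, with a median of 6.80 TPM (3.79 ± 1.08, adjusted p = 0.0499). CACNA1A, the pore subunit of the P/Q-type calcium channel of Purkinje cells, was listed in 5 of 8 CB libraries, at up to 239 TPM, and in 14 of 56 others, at up to 246 TPM. It was called as well (2.87 ± 0.80, adjusted p = 0.0432), but was higher in 5 of 8 animal groups only.

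**Figure D3:**
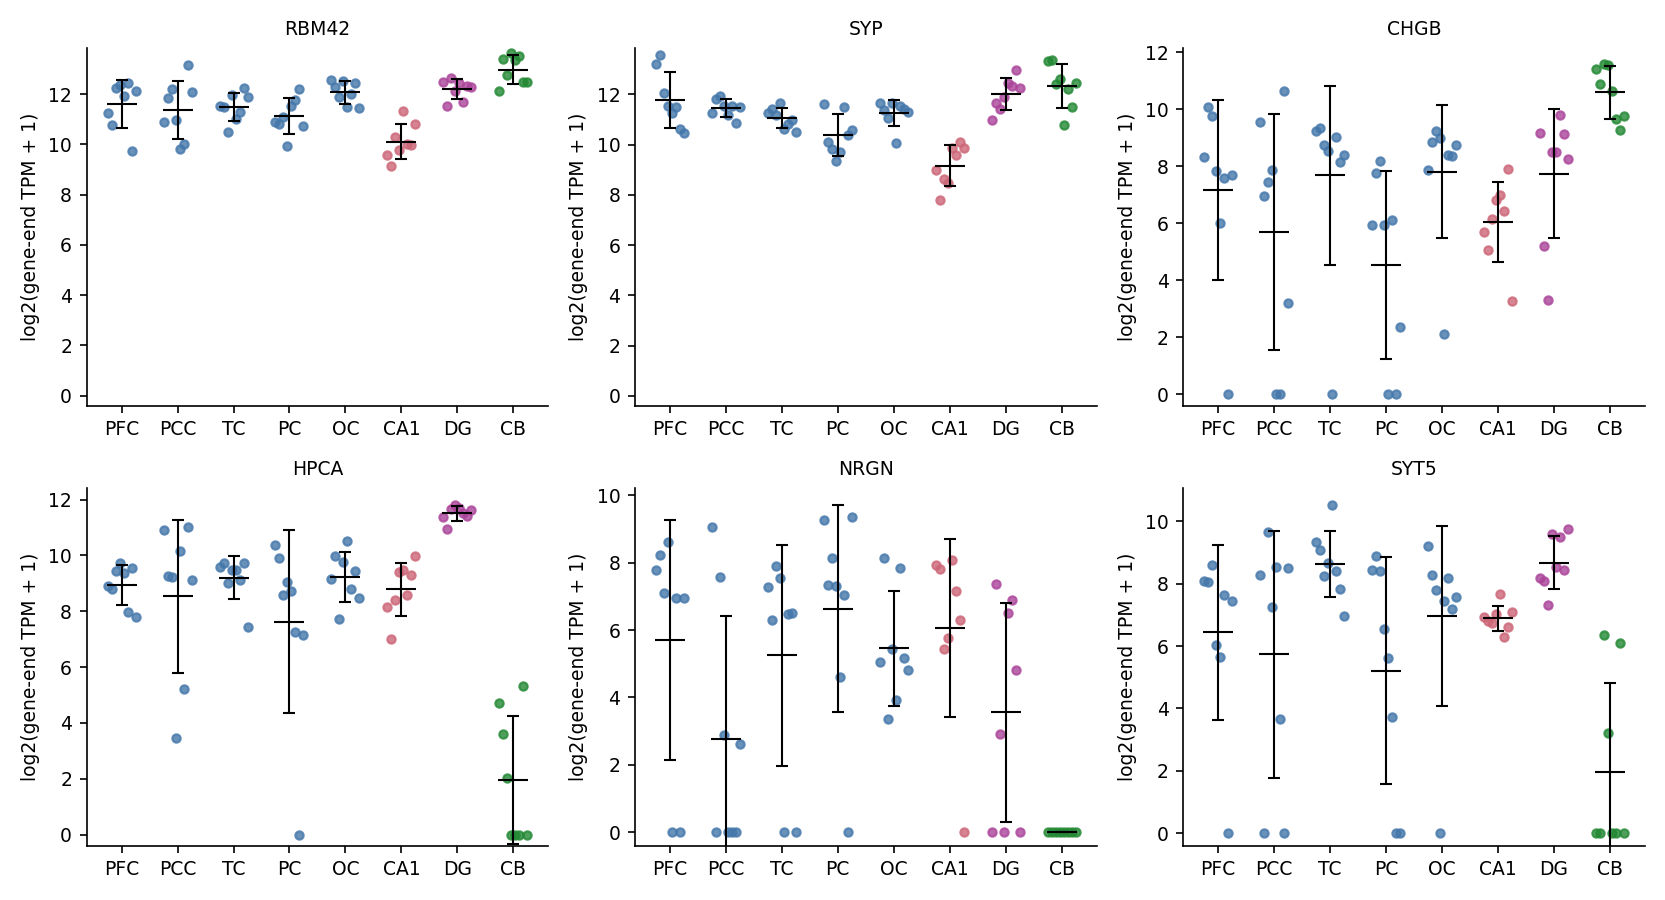
Gene-end level as log2(TPM + 1) of 6 genes named in the comparison of CB with the other regions, for 8 regions. Points are libraries, ordered within a region by age and sex, and bars are the mean ± SD of 8 libraries. RBM42, SYP and CHGB have their highest means in CB, while NRGN is at 0 in all CB libraries and HPCA and SYT5 are at 0 in 4 and 5 of them.

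The hippocampus had 81 gene-end features higher and 1 lower than the neocortex, 4.49% of the features tested, beside 7.9% of features of all classes, of which 7.5% were higher and 0.394% lower. Without the 20-yr-old females 35 were called, without the 4-yr-old males 51 and without the 10-yr-old females 53. The median difference was 0.28 for gene-end features and 0.49 for all features. With the log2 number of listed positions as a term, 29 were called, 17 higher and 12 lower. With quantile normalization 22 were called, 17 higher and 5 lower. Of the 81 features called higher, 8 were called higher by both alternatives.

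MBP was among these 8. Its gene-end TPM had a lowest, median and highest value of 4588, 6506 and 7983 in CA1 and 723, 2424 and 4047 in DG. The lowest CA1 library was above every library of the other regions except PC, whose libraries reached 7546 TPM. In the neocortex the values ran from 47.1 to 7546 with a median of 1572 TPM, and in CB from 1089 to 3584. The hippocampus was higher by 1.50 ± 0.34 (adjusted p = 0.00238) in 8 of 8 animal groups. Of 7 tested members of the oligodendrocyte and myelin list 3 were called higher, MBP, MOG, a protein of the outer myelin surface, and CRYAB, a small heat shock protein, and the median of the list was 1.50. The list's 16 genes held 87.9% of their summed TPM at gene ends, nearly all of it from MBP. MBP mRNA is carried into the processes of oligodendrocytes, and whether this bears on its gene-end level was not tested.

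PRKCSH, the beta subunit of the glucosidase that trims glycoproteins in the endoplasmic reticulum, was listed in all 8 CA1 libraries, at 82.4 to 315 TPM, in 3 of 8 DG libraries and in 7 of 40 neocortical libraries, at up to 55.4 TPM. The hippocampus was higher by 4.09 ± 0.65 (adjusted p = 8.69e-06, 8 of 8 animal groups). MYO10, a myosin of filopodia, was listed in 14 of 16 hippocampal and 14 of 40 neocortical libraries (3.90 ± 0.88, adjusted p = 0.0023). ODAD3, a docking factor of ciliary dynein arms, was listed in all 8 CA1 libraries, at 16.3 to 81.3 TPM, and in 6 of 40 neocortical ones (3.05 ± 0.70, adjusted p = 0.00291). These calls were kept in both alternatives. ALDH1L1, a folate enzyme used as a marker of astrocytes, was high in DG, with 5.49, 312 and 775 TPM, and reached 93.3 TPM in CA1. It was listed in 14 of 40 neocortical libraries (3.89 ± 0.80, adjusted p = 0.000932), and the call was lost with the number of listed positions as a term (2.49, adjusted p = 0.116). Of the 7 astrocyte genes tested only ALDH1L1 was called. The median of that list was -0.18, below that of all features, so the list as a whole was not higher in the hippocampus. COX4I1, a subunit of cytochrome c oxidase, and MAP2, the microtubule protein of dendrites, were called at 2.84 ± 0.93 (adjusted p = 0.0441) and 2.84 ± 0.80 (adjusted p = 0.0164) and lost the call in the same way, with adjusted p of 0.479 and 0.209. NEURL4 was higher by 0.58 ± 0.16 (adjusted p = 0.0168, 8 of 8 animal groups), and with that term its adjusted p was 0.133.

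CA1 had 159 gene-end features higher and 12 lower than DG, 9.36% of those tested, beside 17.5% of features of all classes, of which 16.6% were higher and 0.924% lower. Without the 20-yr-old females 98 were called and without the 4-yr-old males 99. The median difference was 0.72 for gene-end features and 1.21 for all features, which moves with the 11967 positions listed on average in CA1 and 3565 ± 1812 in DG. With the log2 number of listed positions as a term the split was 12 higher and 22 lower, and with quantile normalization 22 higher and 14 lower. The 2 alternatives together kept 5 of the 159 higher and 6 of the 12 lower features.

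GPX4 was among these 5. It had 22157, 25307 and 35880 TPM as its lowest, median and highest values in CA1, and 3227, 7687 and 10521 TPM in DG, with no overlap. The highest library of any other region had 24237 TPM, in PC. CA1 was higher than DG by 2.02 ± 0.31 (adjusted p = 4.89e-06) in 8 of 8 animal groups. LIMCH1, an actin-binding protein gene, was listed in all 8 CA1 libraries, at 54.9 to 261 TPM, and in 1 DG library, at 7.68 TPM (6.40 ± 1.25, adjusted p = 0.000219). PPIG, a cyclophilin of splicing speckles, had 111 to 216 TPM in CA1 and 1 DG library listed, at 25.7 TPM (6.72 ± 1.37, adjusted p = 0.000383). PRKCB, protein kinase C beta, had 56.1 to 375 TPM in CA1 and 2 DG libraries listed, at up to 12.99 TPM (6.56 ± 1.51, adjusted p = 0.0016). TAF3, a subunit of the general transcription factor TFIID, and SEPTIN7, a septin of the cytoskeleton, were listed in all CA1 libraries and at 0 in all DG libraries, with CA1 medians of 37.3 and 42.9 TPM. CRLF3, a cytokine receptor-like gene, was listed in all CA1 and 3 DG libraries (5.18 ± 1.39, adjusted p = 0.00641). Of these 6 features LIMCH1 kept its call with the listed-position term (5.17, adjusted p = 0.0412), and the others did not, with adjusted p from 0.0755 to 0.567.

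The features lower in CA1 went against the direction of all features. SYP had 224, 638 and 1098 TPM in CA1 and 2029, 4321 and 8142 TPM in DG, with no overlap, and CA1 was lower by 2.83 on the log2 scale (-2.83 ± 0.48, adjusted p = 2.66e-05). RBM42 had 567 to 2548 TPM in CA1 and 2984 to 6451 TPM in DG, with no overlap (-2.08 ± 0.46, adjusted p = 0.000962, and 0.0616 with the listed-position term). HPCA had 128 to 1020 TPM in CA1 and 1970 to 3625 TPM in DG, again with no overlap (-2.72 ± 0.99, adjusted p = 0.0444, and 0.155 after quantile normalization). ARHGEF17, an exchange factor for RhoA, had 0, 28.2 and 86.8 TPM in CA1 and 127, 413 and 869 TPM in DG, with no overlap, and its highest median, 2061 TPM, in CB (-4.52 ± 1.25, adjusted p = 0.00799). VEGFB, a growth factor of the VEGF family, had medians of 7.46 TPM in CA1 and 120 TPM in DG, with overlapping ranges (-3.76 ± 1.34, adjusted p = 0.0408). ANXA6, a calcium-dependent membrane-binding annexin, had medians of 2.32 and 38.5 TPM (-3.50 ± 1.24, adjusted p = 0.0395). RPL18, a protein of the large ribosomal subunit, had 1 CA1 library listed, at 2.25 TPM, and 7 DG libraries, with a median of 13.2 TPM (-3.03 ± 1.05, adjusted p = 0.0354), and its call was lost in both alternatives. Each of these features but RPL18 was lower in 8 of 8 animal groups.

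**Figure D4:**
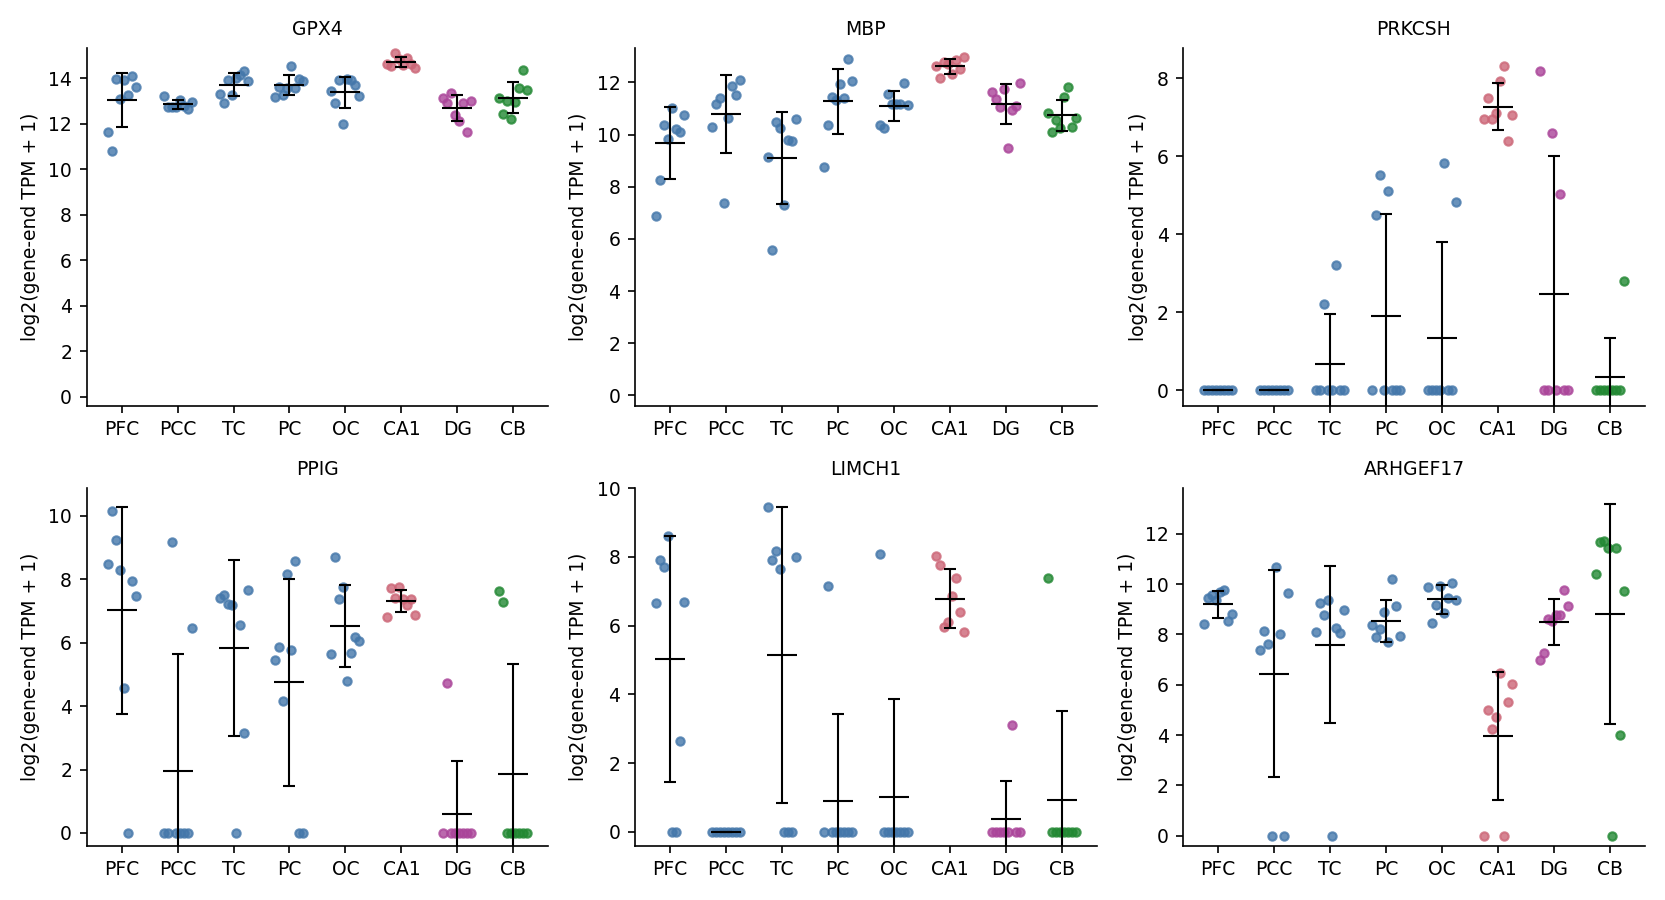
Gene-end level as log2(TPM + 1) of 6 genes named in the comparisons of the hippocampus, for 8 regions. Points are libraries, ordered within a region by age and sex, and bars are the mean ± SD of 8 libraries. GPX4, MBP, PRKCSH, PPIG and LIMCH1 are listed in every CA1 library and higher there than in DG on average, while ARHGEF17 is lower in CA1 than in DG.

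By gene list, calls were few, and the lists were chosen with earlier results of these data known. The shares over all features were 16.6% higher in CA1 than in DG and 7.5% higher in the hippocampus, as above. All list members given here as higher in CA1 than in DG, STMN2, KIF5C, TUBA1A, ELAVL4, NEUROD2, GRIA1, ATP1B1, QDPR, TF and ZBTB20, lost that call with the listed-position term (limma, adjusted p from 0.0784 to 0.708) and with quantile normalization (0.0609 to 0.721). In the hippocampus MAPT lost it in both (0.489 and 0.162), and DDX17 and MOG lost it with quantile normalization (0.111 and 0.0815). Among 16 tested genes of the synaptic vesicle and presynapse list, SYP was higher and SYT5 lower in CB, and SYP was lower in CA1 than in DG. Of 11 tested genes of the dendritic and postsynaptic list NRGN and HPCA were lower in CB, with a list median of -0.95 against -0.40 for all features. The same 2 genes were the calls among 8 genes of calcium and calmodulin signalling, with a median of -1.38. SHANK3, a scaffold of the postsynaptic density, had gene-end tags in 54 libraries without a call. Of 17 tested cytoskeleton and axon genes none was called in CB, MAPT, the tau protein, was higher in the hippocampus, and STMN2, KIF5C and TUBA1A were higher in CA1 than in DG, where the list median of 0.84 was below that of all features. Of 8 tested genes of RNA binding and splicing RBM42 was higher in CB, DDX17, an RNA helicase, in the hippocampus, and ELAVL4, a neuronal RNA-binding protein, in CA1 against DG, where RBM42 was lower. Of 5 tested glutamatergic genes NRGN was lower in CB, and NEUROD2, a transcription factor of excitatory neurons, and GRIA1, an AMPA receptor subunit, were higher in CA1 than in DG. Of 8 ion channel and pump genes CACNA1A was higher in CB and ATP1B1 in CA1 against DG. Of 7 tested oligodendrocyte genes QDPR, which recycles a cofactor of amine synthesis, and TF, transferrin, were higher in CA1 than in DG. Of 2 tested dentate and hippocampal genes ZBTB20, a transcription factor of the hippocampus, was higher in CA1 than in DG, and NRGN was lower in CB. PPP3CB, a calcineurin subunit, was called lower in CA1 than in DG but was lower in 3 of 8 animal groups, and its call was lost with the listed-position term (limma, adjusted p = 0.23). CRYAB, MAP2 and COX4I1 were the calls of the chaperone, dendritic and respiratory chain lists in the hippocampus.

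The share of TPM at the end varied between lists. Ribosomal protein genes held 1.73% of their summed TPM there, with 5 of 45 genes tested, and respiratory chain genes 3.58%, with 6 of 43 tested. Glycolysis and energy genes held 7.24% and chaperones and proteasome genes 11.6%, and GABAergic genes held 6.81%. Astrocyte genes held 8.87%, cerebellar genes 11.04% and cytoskeleton and axon genes 14.8%. The lists of calcium signalling and of RNA binding and splicing held 61.3% and 55.0%, the former mostly from HPCA and the latter from RBM42. The dendritic list held 48.6%, again mostly from HPCA. The share also differed with the annotated span. Nuclear genes with spans of up to 5000 nt held 8.36% of their TPM at the end. Genes with spans of 5000 to 20000 nt held 30.5%, those of 20000 to 100000 nt 30.7% and those over 100000 nt 30.4%. The lists were not matched by span, and the part of span in their shares was not tested. Microglia, neocortical layer and cerebellar lists had 1 tested gene each, with no call, and the immediate-early list had 2, with no call. No blood gene had a gene-end position.

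Gene-end and start levels were compared within the 714 genes with both features, as log2(gene-end TPM + 1) minus log2(start TPM + 1). In CB, 4 genes were called, 0.56%, of which 0.14% were higher and 0.42% lower relative to the start. Leaving out 1 animal group gave 1 to 5 calls, with 1 without the 10-yr-old males and 2 without the 4-yr-old females or the 4-yr-old males. HPCA fell by 6.15 ± 1.03 relative to its start (limma, adjusted p = 9.23e-05, 8 of 8 animal groups), with start tags in 27 of 64 libraries. SYT5 fell by 4.34 ± 1.06 (adjusted p = 0.0279) and PRKCB by 5.4 ± 1.36 (adjusted p = 0.0346). CNTNAP1, the contactin-associated protein of the nodes of Ranvier, rose by 4.14 ± 0.98 (adjusted p = 0.0279, 7 of 8 animal groups). With the listed-position term HPCA kept its call (adjusted p = 0.000303) and the other 3 had adjusted p of 0.0507, 0.0510 and 0.0507.

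Between the hippocampus and the neocortex 11 genes were called, 1.54%, 4 (0.56%) with a higher and 7 (0.98%) with a lower gene-end level relative to the start. With 1 animal group left out 1 to 11 were called, with 1 call without the 1-yr-old females and 2 without the 4-yr-old males. COX4I1 (5.43 ± 1.12, adjusted p = 0.00561), STMN4, a stathmin of neurons (5.07 ± 1.22, adjusted p = 0.0184), MAP2 (2.95 ± 0.80, adjusted p = 0.037) and BAALC, a neuroectodermal membrane-associated protein (2.45 ± 0.65, adjusted p = 0.033), were higher. For COX4I1, STMN4 and BAALC the start tags were low in CA1. STMN4 start tags were listed in 2 of 8 CA1 libraries. COX4I1 start tags had medians of 117 TPM in PFC, 295 in OC and 0.545 in CA1, and BAALC start tags medians of 1426, 2320 and 185 TPM. CSNK1D, a casein kinase (-3.64 ± 1.00, adjusted p = 0.037), CNTNAP1 (-2.90 ± 0.77, adjusted p = 0.033), STK16, a membrane-bound kinase (-2.77 ± 0.77, adjusted p = 0.0403) and UCHL1, a neuronal ubiquitin hydrolase (-2.54 ± 0.63, adjusted p = 0.0237), were lower. None of these 8 kept its call with the listed-position term, with adjusted p from 0.0809 to 0.279. Of all 7 lower genes 2 that the rule did not name, ENSMMUG00000004125 and ENSMMUG00000030356, kept their call in both alternatives.

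Between CA1 and DG 32 genes were called, 4.48%, 10 (1.4%) with a higher and 22 (3.08%) with a lower gene-end level relative to the start. With 1 animal group left out 5 to 27 were called, with 5 without the 1-yr-old females and 5 without the 4-yr-old males. In 3 genes with large decreases the start was listed in every CA1 library. TUBB2B, a tubulin (-6.46 ± 1.58, adjusted p = 0.0171), CNTNAP1 (-5.99 ± 1.30, adjusted p = 0.00743) and TKT, transketolase (-5.83 ± 1.78, adjusted p = 0.043), had start medians of 47.8, 74.6 and 78.1 TPM in CA1 and of 0 in DG. In DG, 3, 1 and 1 libraries listed the start. The largest increases were FKBP8, an outer mitochondrial membrane immunophilin (10.16 ± 2.69, adjusted p = 0.023), SAP30BP, a transcription regulator (6.60 ± 1.69, adjusted p = 0.023), ETFB, an electron transfer flavoprotein (6.35 ± 1.89, adjusted p = 0.0354), and FEZ1, a kinesin adaptor (5.88 ± 1.58, adjusted p = 0.023). FKBP8 start tags had a median of 0 TPM in CA1 and 1846 TPM in DG. With the listed-position term none of these 7 genes kept its call, and 9 genes of all 714 were called. SYP, whose gene-end level was lower in CA1, was also lower relative to its start (-4.48 ± 0.94, adjusted p = 0.00743, 0.0414 with that term and 0.154 after quantile normalization), with start tags of up to 16.8 TPM in CA1.

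No gene-end feature was called by age (10 and 20 yr minus 1 and 4 yr) or by sex in limma on the 8 animal-group means, beside 0.0% of features of all classes. At an unadjusted p under 0.05 in the same limma fits there were 177 of 1826 features by age and 93 by sex. These counts are not calls, and they are not set against the share over all features, so they are no result about gene ends. No other tool was run for these.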

How the data were processed

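The study made CAGE-seq libraries from poly(A)-selected RNA treated with a kinase and a 5′-phosphate-dependent exonuclease. The authors filtered reads with FASTX-Toolkit, aligned them to MMUL 1.0 with TopHat2 and kept unique reads. They deposited a table of 5′ end positions with TPM values, which are RPM (reads scaled to the library total) with no length correction. No whole tag counts were used here, since values below 2 to 7 tags, depending on the library, are not listed, and precision is limited by the 637 to 23612 nuclear positions listed per library. The 64 libraries were grouped by the labels, and 0 columns were left without a sample.

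Positions were classed by distance from the annotated start, and TPM was summed per gene and class. Features reaching 1 TPM in 8 libraries entered limma 3.58.1 (trend, R 4.3.3) as log2(TPM + 1), with Benjamini-Hochberg adjustment over features of all classes. Shares were tested by sign flips or permutations (NumPy 2.4.6), adjusted over 8 tests. Libraries of one age and sex are paired because the study's methods say that all regions came from each specimen, and this animal group was the block. The mean correlation of deviations was 0.00916 over 224 pairs of libraries of one animal group and -0.00131 over 1568 pairs of different groups. The fit was tested on simulated CB data, where it missed most changes in sparsely listed features. In features listed in at least 56 libraries it called 0, 4, 9 and 26 of 50 at set log2 changes of 1, 2, 3 and 4. Beside these, 13 unchanged features were called. Unchanged features made up more of its calls than the adjusted p threshold allows, so low counts of calls say little and single calls can be false.

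Genes were named by rules. They were the 12 genes with the highest gene-end TPM, the 6 largest called changes each way seen in 7 of 8 animal groups, the 3 highest members of each list, the 4 largest called within-gene changes each way and the 6 positions listed in most libraries. Of the genes these rules took, 1 lower gene of the within-gene comparison of CA1 with DG is not reported here. CACNA1A, CBLN1, MOG, CRYAB and other called list members were named after their values were seen where no rule took them. The members and the lists were chosen with earlier results of these data known. The alternatives were another pseudocount, no filter, a limit at 0.9 of the span, quantile normalization, spans of at most 200 kb, 2 TPM as the lowest value, leaving out the 10 most abundant genes, no block and leaving out each animal group. A term for the number of listed positions and leaving out HYPK, GPX4 and NEURL4 were added after the data were seen.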

Additional observations from a re-analysis of the deposited data

Results flagged for a closer look

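For 7 measures in each of 8 regions, 56 sets of 8 libraries were searched for a library apart by Dixon's test. In 12 sets 1 library stood apart from the other 7. Chance does this in about 1 in 20 independent sets of normal values. These sets share libraries between measures, so that rate is no fair comparison for the 12. The gene-end share of TPM was 22.2% in the PC library of the 20-yr-old females, against 24.2% to 25.7% in the others, and 30.3% in the DG library of the same animal group, against 25.4% to 27.3%. The gene-end share of positions was 28.7% in the PFC library of the 1-yr-old males, against 20.4% to 24.1%. That library also listed 3068 gene-end positions, against 498 to 1469, and had the lowest recurrence in PFC, 46.6% for gene-end positions (others 58.6% to 67.7%) and 43.3% for interior positions (others 56.3% to 62.8%). Gene-end positions were also many in the OC library of the 20-yr-old males, 2299 (others 733 to 1299), the CA1 library of the 20-yr-old females, 6713 (others 1456 to 3474), and the DG library of the 10-yr-old males, 2007 (others 371 to 942). HYPK, GPX4 and NEURL4 held 6.65% of nuclear TPM in the TC library of the 10-yr-old females (others 9.52% to 11.04%), where the gene-end share without them was 20.9% (others 11.6% to 15.8%). They held 18.2% in the CA1 library of the 4-yr-old females (others 13.9% to 15.4%).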

How the results depend on the processing

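The difference in share between hippocampus and neocortex was not called at 0.9 of the span (1.11 points), without the 3 (0.0954) or the 10 (-0.729) most abundant genes, or with the slope on listed positions removed (1.70), and left-out animal groups gave 2.09 to 2.92 points. CA1 minus DG was called without the 10 genes (-4.65), without the 3 genes (-5.45) and with the slope removed (-2.45). The age difference was 0.142 points at 0.9 of the span. The recurrence difference was -0.189 points at 2 TPM or more, -0.507 after joining positions, and -0.0656 (without the 10-yr-old males) to 0.498 with 1 animal group left out. The range of region shares was 3.10 to 4.54 points with 1 group left out.

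Called features numbered 15, 46 and 106 for CB, hippocampus and CA1 against DG at 0.9 of the span. Quantile normalization gave 39, 22 and 36 and the listed-position term 39, 29 and 34, with the CB calls higher going from 16 to 30 and 33. Left-out animal groups gave 15 to 30, 35 to 89 and 98 to 192. Within genes, no filter gave 7, 82 and 250 calls, quantile normalization 9, 20 and 49, the listed-position term 1, 5 and 9, and left-out groups 1 to 5, 1 to 11 and 5 to 27. A pseudocount of 0.25 TPM gave 1 in CB, and 0.9 of the span 7 for the hippocampus. With no replicate block 21, 79 and 167 features and 5, 13 and 33 genes were called, and no call on a share changed. Left-out groups and the term also leave fewer degrees of freedom. The cause of these changes was not tested.

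Counting each call on a named gene once for each alternative, 657 were kept and 248 lost, and 0 changed direction. At 0.9 of the span only 47 of the 66 calls had a value, of which 41 were kept. The calls without a value there are in neither count. The listed-position term kept 26 of 66, quantile normalization 54 of 66 and no block 62 of 66. The planned edgeR test was not run. Of the listed values under 15 TPM 99.6% to 100% were whole multiples of a step, but positions below the listing limit of 2 to 7 tags are not in the table, so the values were not treated as complete counts.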
